A study of Bos taurus with 50 samples.

Results

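The genes described here are SERPINA1 (ENSBTAG00000018843), FAM213A (ENSBTAG00000021416), BMP7 (ENSBTAG00000015362), RAB20 (ENSBTAG00000031962) and MAN1A1 (ENSBTAG00000024381), 5 of the 18830 genes in a table of reads counted in bovine endometrium. They were chosen by their identifiers for their levels at week 5 postpartum in cows that were cycling without progesterone (P4), and earlier values of these same libraries chose them. Their week 5 differences between groups and their changes from week 5 to week 9 are therefore given as a description with no test. Tests of these genes between groups are given only at week 9. A screen for single outlying libraries within groups, given near the end, covered both weeks. All 5 passed the filter on low counts, as did 16120 genes in all.

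The endometrium was biopsied at week 5 and week 9 postpartum from first lactation Holstein x Jersey dairy cows on 1 farm. CycW5 cows had a corpus luteum (CL) and circulating P4 at week 5 (10 libraries at week 5 and 10 at week 9), and NoCycW5 cows had no CL and P4 below detection (12 and 11 libraries). The third group, called CycNoP4 here, held cows that had started to cycle and had high P4 a week before, but no longer had it when biopsied at week 5 (4 and 3 libraries). Some of these cows had no CL and others had a CL with a large lacuna, and the labels do not say which library is which; the study left the group out of its own analysis. Between the biopsies every cow of the 3 groups received GnRH, an intravaginal P4 insert, PGF2α and a second GnRH injection, a schedule meant to place the week 9 biopsy in the luteal phase of a synchronized estrous cycle. The ovaries set which uterine horn was biopsied: a CL decided the side, and otherwise the largest follicle did. No source used here links a library to a cow. Each library goes by its label's number, and P values measure the spread between libraries.

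Reads assigned to genes numbered 21592867 to 32813237 per library (median 28126022.5), and 28307781 to 32715330 in the 4 week 5 CycNoP4 libraries. Levels are counts per 1000000 reads (CPM) after TMM scaling. They can be compared between libraries for 1 gene but not between genes, because the counts are not corrected for length. No pair of libraries was a repeat: over 1225 pairs, the smallest mean chi-square per gene was 27.9, where sampling noise gives 1. Markers of epithelium (EPCAM, KRT8), stroma (PDGFRA) and endothelium (VWF) were counted in all 50 libraries.

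The cyclic endometrium is governed by estradiol before ovulation and by P4 from the CL after it, and it secretes proteins into the lumen that the conceptus lives on. SERPINA1 is α1-antitrypsin, a secreted inhibitor of neutrophil elastase. FAM213A, named PRXL2A by RefSeq, is a redox protein related to the peroxiredoxins. BMP7 is a secreted ligand of the transforming growth factor β family that signals through receptor kinases and SMAD proteins. RAB20 is a small GTPase of endosomes and phagosomes. MAN1A1 is a mannosidase of the Golgi that trims N-glycans before they are branched.

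Some libraries stood apart from the rest of their group. On the first principal component of log2 CPM, which held 31.7% of the variance, the 12 NoCycW5 libraries of week 5 lay between 32.997 and 70.9. All 4 CycNoP4 libraries of week 5 lay in that range (35.9 to 52.7). CycW5 library 57 of week 5 (45.1), NoCycW5 libraries 76 and 91 of week 9 (61.4 and 55.7) and CycW5 libraries 87 and 89 of week 9 (73.8 and 60.4) also lay at or above its lower end, away from the other libraries of their groups. The fitted fold changes of the 5 genes that rest on these libraries, and the correlations, are given with and without them. The rule set week 5 CycNoP4 and NoCycW5 libraries aside, so none of the libraries left out belongs to those groups. Leaving them out changes CycNoP4 against NoCycW5 at week 5 only through the shared fit, and is no check of that comparison. The calls of the single genes named below at week 5 held without the libraries that stood apart. Only library 57 of these is of week 5, so the calls against NoCycW5 cows kept all their libraries and were not checked by this.

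The 5 genes did not share 1 pattern. SERPINA1 and FAM213A were high in most CycNoP4 and most CycW5 libraries of week 5 and low in NoCycW5 libraries. BMP7, RAB20 and MAN1A1 were highest in CycNoP4 libraries, intermediate in NoCycW5 libraries and lowest in CycW5 libraries. The name "high in cycling cows without progesterone" therefore held only in part: SERPINA1 and FAM213A were also high in cycling cows with P4, and SERPINA1 was near 0 in 1 of the 4 libraries. Of the 5 genes, only BMP7 had all 4 CycNoP4 libraries above all NoCycW5 libraries of week 5, and BMP7, RAB20 and MAN1A1 had all 4 above all CycW5 libraries. Over all genes tested, 0.459% separated in this way from NoCycW5 and 1.12% from CycW5 libraries. The genes were chosen on this contrast, so nothing is read from these counts.

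**Figure D1:**
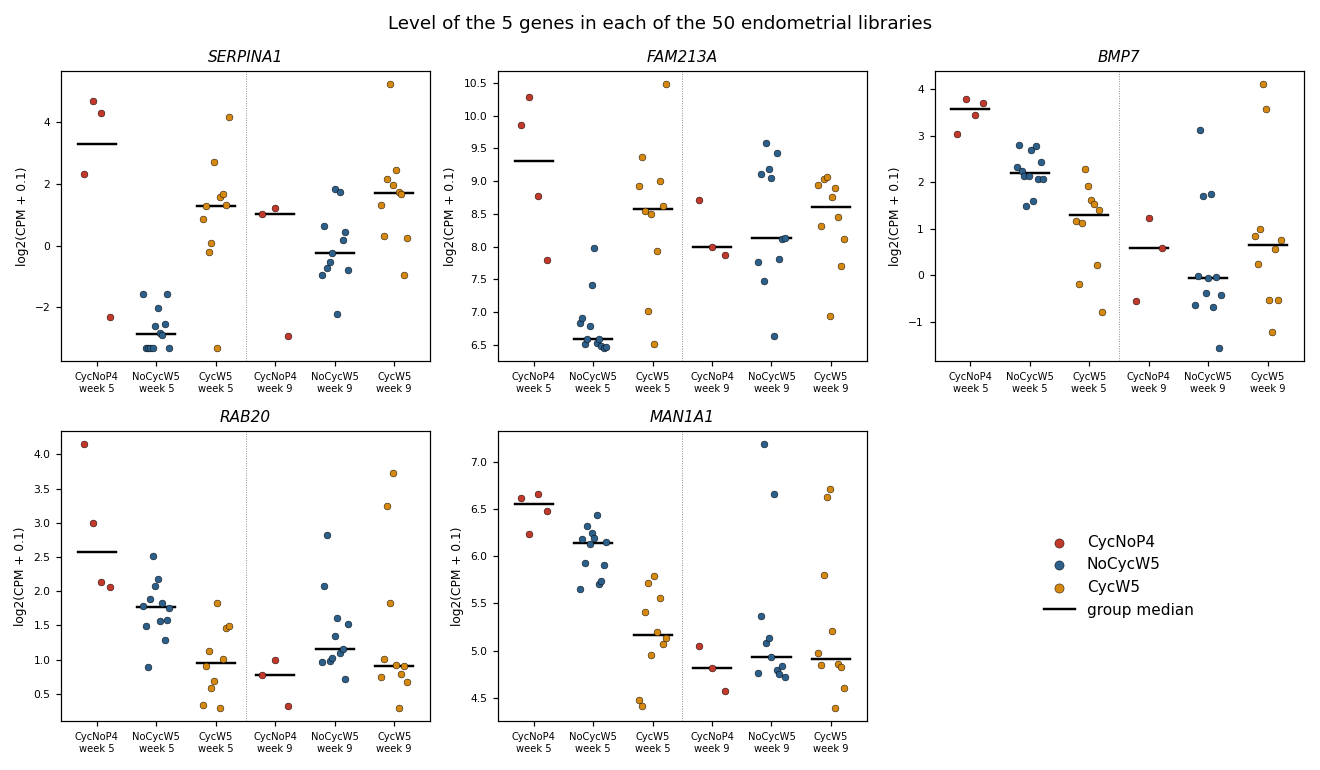
Level of each gene as log2(CPM + 0.1) in 50 libraries, by cow group and week; each point is 1 library and each line a group median. SERPINA1 and FAM213A are lowest in NoCycW5 cows at week 5, whereas BMP7, RAB20 and MAN1A1 have their highest group median in CycNoP4 cows at week 5.

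SERPINA1 stood at 4.86, 25.8, 19.5 and 0.101 CPM in CycNoP4 libraries 51, 56, 58 and 64 of week 5, the last of which rests on 3 reads. Library 64 was thus at the level of the NoCycW5 cows while the other 3 were far above it. The 12 NoCycW5 libraries of week 5 ranged from 0 to 0.235 CPM (median 0.0367), with 5 libraries at 0 and 24 reads in all. A count of 0 allows up to 3 reads, which is 0.0887 to 0.125 CPM in the libraries concerned; this covers counting error only. The 10 CycW5 libraries of week 5 ranged from 0 in library 57 to 17.9 CPM in library 70, with a median of 2.35. The next library below library 70 was at 6.44 CPM. CycNoP4 libraries 56 and 58 were above every CycW5 library, library 51 was inside their range, and library 64 was below all but library 57.

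The fitted log2 fold change of SERPINA1 at week 5 was 7.41 ± 1.01 (SE) for CycNoP4 against NoCycW5 and 1.71 ± 0.91 for CycNoP4 against CycW5. For CycW5 against NoCycW5 it was 5.70 ± 0.90. These values were 7.43, 1.58 and 5.85 without the 5 libraries that stood apart. The comparisons share libraries, and the first and the last rest on the 24 reads of the NoCycW5 cows. Leaving out 1 library at a time gave 6.79 to 7.82 for CycNoP4 against NoCycW5 and 1.08 (without library 56) to 2.46 (without library 70) against CycW5. For CycW5 against NoCycW5 it gave 4.95 (without library 70) to 6.04 (without library 14). In this bulk tissue, fewer cells that express a gene and less RNA per cell cannot be told apart.

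At week 9, SERPINA1 stood at 1.94, 2.22 and 0.0311 CPM in CycNoP4 libraries 79, 88 and 94, so 1 of the 3 libraries was again near 0. NoCycW5 libraries of week 9 ranged from 0.113 to 3.46 CPM (median 0.741), and none was at 0. CycW5 libraries ranged from 0.417 to 37.7 CPM (median 3.14), with library 87 far above the next (5.32). The change from week 5 to week 9 in NoCycW5 cows was 4.04 ± 0.87 on the log2 scale, and 10 of the 11 week 9 libraries were above all week 5 libraries of that group. In CycW5 cows it was 0.70 ± 0.73, and in CycNoP4 cows it was -3.17 ± 1.41 with overlapping libraries. The change without the 5 libraries was 4.25 ± 0.75 in NoCycW5 cows and -0.69 ± 0.67 in CycW5 cows, the latter with the opposite sign, as it had without library 87 alone (-0.48).

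FAM213A followed a similar order. Its levels in libraries 51, 56, 58 and 64 were 925, 1252, 438 and 222 CPM, so library 64 was again the lowest of the 4 and library 56 the highest. NoCycW5 libraries of week 5 ranged from 87.4 to 252 CPM (median 96.6), and only library 55 (252) exceeded library 64. CycW5 libraries ranged from 91.1 in library 57 to 1433 in library 70 (median 383). No CycNoP4 library was above every CycW5 library. The fitted log2 fold change was 2.60 ± 0.42 against NoCycW5 and 0.60 ± 0.46 against CycW5, and it was 1.997 ± 0.35 for CycW5 against NoCycW5. Without library 56 the value against CycW5 was 0.17, and without CycW5 library 70 it was 0.97. Leaving out the 5 libraries that stood apart gave 2.63 against NoCycW5, 0.50 against CycW5 and 2.12 for CycW5 against NoCycW5.

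At week 9 the 3 groups overlapped in FAM213A. CycNoP4 libraries 79, 88 and 94 stood at 420, 254 and 235 CPM, NoCycW5 libraries at 98.9 to 765 (median 281) and CycW5 libraries at 122 to 536 (median 391). The change from week 5 was 1.77 ± 0.34 in NoCycW5 cows, with 7 of the 11 week 9 libraries above all week 5 libraries. It was -0.33 ± 0.36 in CycW5 and -1.23 ± 0.63 in CycNoP4 cows. With the 5 libraries left out it was 1.963 ± 0.30 in NoCycW5 and -0.40 ± 0.33 in CycW5 cows, and without library 70 the CycW5 value was 0.048.

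BMP7 was the gene whose 4 CycNoP4 libraries lay above both other groups of week 5. Its levels were 8.09, 13.7, 10.8 and 12.8 CPM in libraries 51, 56, 58 and 64, where NoCycW5 libraries of week 5 ranged from 2.71 to 6.89 (median 4.48) and CycW5 libraries from 0.480 to 4.74 (median 2.36). Library 64, the lowest of the 4 in SERPINA1 and FAM213A, was the second highest in BMP7. The log2 fold change was 1.25 ± 0.66 against NoCycW5 and 2.28 ± 0.68 against CycW5. Unlike SERPINA1, BMP7 was lower in CycW5 than in NoCycW5 cows at week 5, with a log2 fold change of -1.03 ± 0.54 and 6 of 10 CycW5 libraries below all NoCycW5 libraries. The 3 values were 1.27, 2.35 and -1.07 without the 5 libraries.

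At week 9 the same gene stood at 0.580, 2.26 and 1.40 CPM in CycNoP4 libraries 79, 88 and 94, all below the 4 libraries of week 5, and the change was -3.005 ± 1.05. NoCycW5 libraries ranged from 0.239 to 8.54 CPM (median 0.857) and CycW5 libraries from 0.330 to 17.1 (median 1.49). The change from week 5 was -1.38 ± 0.53 in NoCycW5 and 0.70 ± 0.55 in CycW5 cows. Leaving out the 5 libraries gave -2.35 ± 0.37 and -0.97 ± 0.39, so that the CycW5 value changed sign, and without library 87 alone it was -0.0043. Only 3 libraries outside week 5 CycNoP4 cows reached the lowest of those 4 libraries, all of week 9. They were NoCycW5 library 76 (8.54) and CycW5 libraries 87 (17.1) and 89 (11.8). The share of all genes whose CycNoP4 libraries separated between the weeks was not computed. The genes were chosen for their level at week 5, so nothing is read from this separation in BMP7, RAB20 or MAN1A1.

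The week 5 difference in RAB20 depended on library 51. RAB20 stood at 17.6 CPM in library 51, against 7.89, 4.31 and 4.09 in libraries 56, 58 and 64. NoCycW5 libraries of week 5 ranged from 1.75 to 5.58 CPM (median 3.31), so libraries 58 and 64 lay inside that range. CycW5 libraries ranged from 1.13 to 3.45 CPM (median 1.84), below all 4. The log2 fold change against NoCycW5 was 1.33 ± 0.43 with all libraries and 0.69 without library 51, and against CycW5 it was 2.10 ± 0.44 and 1.45 without library 51. For CycW5 against NoCycW5 it was -0.76 ± 0.35. The 3 values were 1.37, 2.26 and -0.88 without the 5 libraries that stood apart. CycNoP4 libraries 79, 88 and 94 of week 9 stood at 1.603, 1.90 and 1.15 CPM, all below those of week 5. The change was -2.45 ± 0.66, and -1.81 without library 51. At week 9 the highest levels were in CycW5 libraries 89 (13.1) and 83 (9.42) and in NoCycW5 library 76 (6.94). The change from week 5 was -0.28 ± 0.33 in NoCycW5 and 0.91 ± 0.36 in CycW5 cows, and -0.55 ± 0.29 and 0.52 ± 0.32 without the 5 libraries.

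MAN1A1 varied least among the 4 CycNoP4 libraries, with the highest level 1.34 times the lowest. Libraries 51, 56, 58 and 64 stood at 98.1, 75.5, 101 and 89.0 CPM, NoCycW5 libraries of week 5 at 50.2 to 86.2 (median 70.4) and CycW5 libraries at 21.2 to 55.2 (median 35.8). Libraries 51, 58 and 64 were above all NoCycW5 libraries, and library 56 lay inside their range. The log2 fold change was 0.44 ± 0.36 against NoCycW5 and 1.27 ± 0.36 against CycW5, and it was -0.83 ± 0.28 for CycW5 against NoCycW5, with 8 of 10 CycW5 libraries below all NoCycW5 libraries. The fold changes were 0.47, 1.37 and -0.90 without the 5 libraries that stood apart. At week 9 CycNoP4 libraries 79, 88 and 94 stood at 33.02, 28.1 and 23.7 CPM, all below those of week 5, and the change was -1.68 ± 0.51. NoCycW5 libraries of week 9 ranged from 26.2 to 145 CPM (median 30.6) and CycW5 libraries from 20.9 to 105 (median 30.1). The change from week 5 was -0.49 ± 0.27 in NoCycW5 and 0.29 ± 0.28 in CycW5 cows, and -1.12 ± 0.15 and -0.16 ± 0.16 without the 5 libraries, so that the CycW5 value changed sign.

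**Figure D2:**
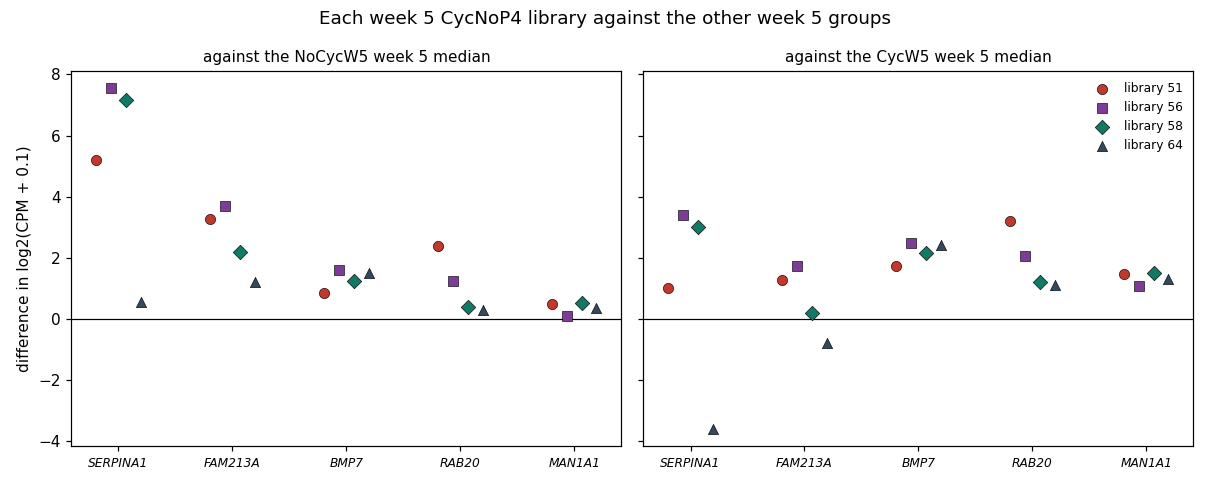
Difference in log2(CPM + 0.1) between each of the 4 week 5 CycNoP4 libraries and the median of the NoCycW5 (left) and CycW5 (right) libraries of week 5. Library 64 is 3.61 below the CycW5 median in SERPINA1 but 2.40 above it in BMP7, and library 51 is the highest in RAB20.

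When the 6 groups were ordered by their median, CycNoP4 at week 5 came first for each of the 5 genes, which follows from how they were chosen. Its mean log2 CPM exceeded that of the next group by more than the pooled SD for BMP7 (1.26, SD 0.40), RAB20 (1.11, SD 0.59) and MAN1A1 (0.45, SD 0.24), and by less for SERPINA1 (0.60, SD 2.20) and FAM213A (0.76, SD 0.82). For BMP7 its libraries did not overlap with the next group (NoCycW5 at week 5), and for the other 4 genes they did. NoCycW5 at week 5 came second for BMP7, RAB20 and MAN1A1 but last for SERPINA1 and FAM213A. Every later pair of neighbours in the order overlapped, for all 5 genes. SERPINA1 in NoCycW5 cows lay 2.95 lower at week 5 than at week 9 in mean log2 CPM, where the pooled SD of the 2 groups was 1.04, and FAM213A lay 1.40 lower in NoCycW5 cows at week 5 than in CycNoP4 cows at week 9 (pooled SD 0.46). Neighbours in the lower places for BMP7, RAB20 and MAN1A1 differed by less than their pooled SD, except NoCycW5 against CycW5 at week 5 for BMP7 (1.22, SD 0.74) and MAN1A1 (0.88, SD 0.37).

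The tests that the choice of genes did not use are those at week 9. By edgeR's quasi-likelihood test, none of the 5 genes passed a BH adjusted P of 0.05 in any of the 3 comparisons, and neither did any other gene: 0% of 16120 genes for CycNoP4 against NoCycW5, 0% for CycNoP4 against CycW5 and 0% for CycW5 against NoCycW5. At an unadjusted P under 0.05 there were 782, 1257 and 934 genes. DESeq2's Wald test called 13, 19 and 15 genes and limma-voom called 0, 0 and 0, none of them a member. Only 3 CycNoP4 libraries stand behind 2 of these comparisons, and a missed threshold does not show that the levels were alike.

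For CycNoP4 against CycW5 at week 9, the log2 fold changes were -2.16 ± 1.25 for SERPINA1 (edgeR adjusted P = 0.727), -0.30 ± 0.53 for FAM213A (0.956) and -1.43 ± 0.90 for BMP7 (0.757). They were -1.27 ± 0.57 for RAB20 (0.626, unadjusted P = 0.0318 by edgeR) and -0.70 ± 0.44 for MAN1A1 (0.757). The median over all genes was -0.015. The values of the 5 genes rest partly on the CycW5 libraries that stood apart. Without the 5 libraries the values were -0.91, -0.35, 0.30, -0.74 and -0.17 in the same order, so that BMP7 changed sign.

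Against NoCycW5 at week 9, the corresponding values were 0.21 ± 1.08 (adjusted P = 0.977), -0.40 ± 0.53 (0.913), -0.38 ± 0.83 (0.944), -0.84 ± 0.55 (0.879) and -0.75 ± 0.44 (0.879) by edgeR. Without the 5 libraries they were -0.0042, -0.59, 0.60, -0.55 and -0.11, and SERPINA1 and BMP7 changed sign.

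For CycW5 against NoCycW5 at week 9, SERPINA1 had the smallest P of the 5 genes, with a log2 fold change of 2.36 ± 0.75 (edgeR unadjusted P = 0.00277, adjusted P = 0.609). Of the CycW5 libraries, 9 of 10 were above the NoCycW5 median and 4 of 10 above all NoCycW5 libraries. Library 87 alone moved the fold change to 1.19 when it was left out, and the value was 0.91 without the 5 libraries. The other 4 genes had log2 fold changes of -0.09 ± 0.35 (FAM213A), 1.05 ± 0.54 (BMP7), 0.43 ± 0.35 (RAB20) and -0.05 ± 0.28 (MAN1A1), with adjusted P from 0.855 to 0.988 by edgeR. Without the 5 libraries they were -0.24, 0.30, 0.19 and 0.059, and MAN1A1 changed sign. Single libraries moved BMP7 as well, to 0.34 without library 87, 0.67 without library 89 and 1.70 without library 76.

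**Figure D3:**
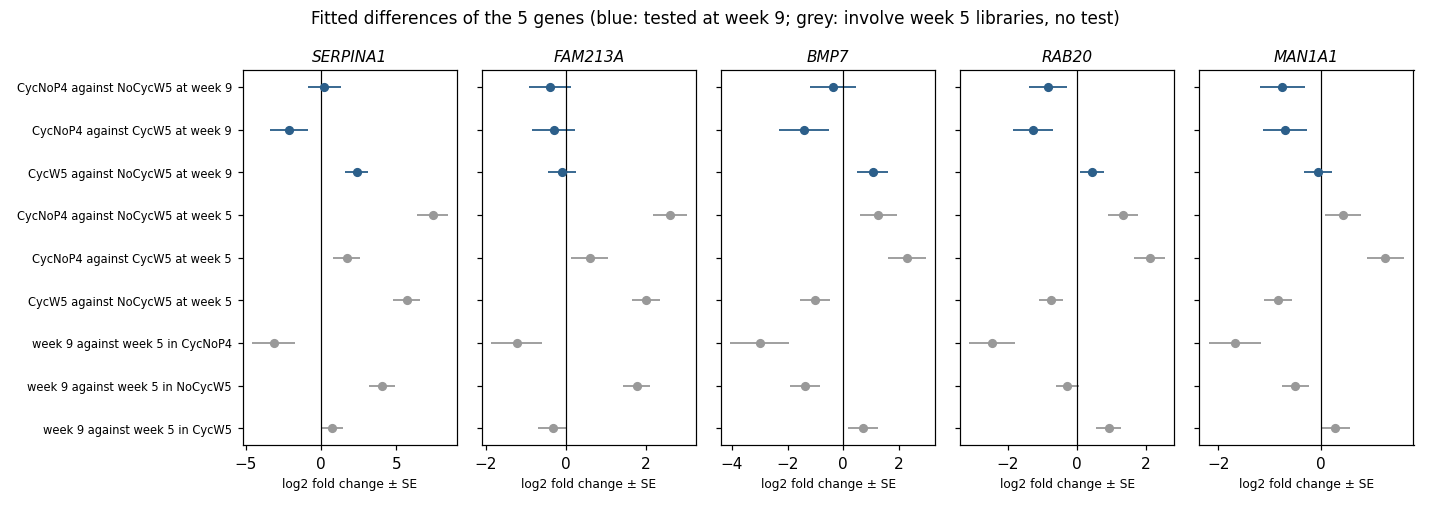
Fitted log2 fold change ± SE of each gene in 9 comparisons, with a separate horizontal scale for each gene. Blue points were tested, and none passed the threshold; grey points involve week 5 libraries and were not tested. SERPINA1 and FAM213A lie above 0 for CycW5 against NoCycW5 at week 5, and BMP7, RAB20 and MAN1A1 lie below it.

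At week 9, the levels of BMP7, RAB20 and MAN1A1 seen in week 5 CycNoP4 cows were reached together in 2 libraries of other groups and in 0 of 3 CycNoP4 libraries. Each of the 3 genes was at or above the lowest week 5 CycNoP4 library (8.09, 4.09 and 75.5 CPM) in all 4 of those libraries by construction, in 1 of 11 NoCycW5 libraries of week 9 (library 76), in 1 of 10 CycW5 libraries of week 9 (library 89), and in no library of the other 3 groups. For SERPINA1 the lowest of those 4 libraries stood at only 0.101 CPM. All 11 NoCycW5 and all 10 CycW5 libraries of week 9 reached it, so reaching it does not mark a high level. With that limit, libraries 76 (0.508 CPM of SERPINA1) and 89 (3.78) reached the lowest level of those 4 libraries in 4 of the 5 genes, all but FAM213A. CycW5 library 87 of week 9 also reached it in 4 of the 5, with 37.7 CPM of SERPINA1, 536 of FAM213A, 17.1 of BMP7 and 99.0 of MAN1A1. Its RAB20 level of 3.46 CPM was just under the lowest of the 4. No library outside week 5 CycNoP4 cows reached all 5. Libraries 76, 87 and 89 are among the 5 that stood apart from their groups.

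**Figure D4:**
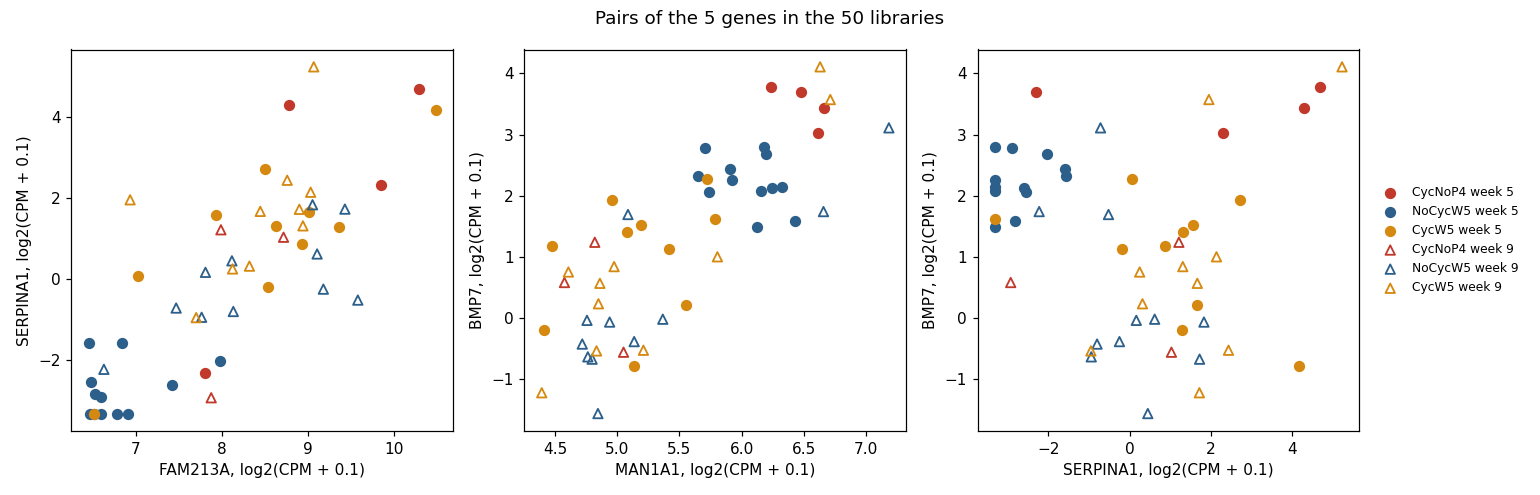
Levels of 3 pairs of genes as log2(CPM + 0.1) in the 50 libraries; filled circles are week 5 and open triangles week 9, colored by cow group. Week 9 triangles at the top right of the BMP7 and MAN1A1 panel are CycW5 libraries 87 and 89 and NoCycW5 library 76, which lie among or beyond the 4 red circles.

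Over the 50 libraries, SERPINA1 was most like FAM213A among 16119 other genes (Pearson r = 0.80 in log2 CPM), followed by ENSBTAG00000007392 (0.77) and S100G (0.76), which encodes the calcium-binding protein calbindin-D9k. FAM213A was most like S100A2 (0.83), another calcium-binding S100 protein, SERPINA1 (0.80) and TMEM30B (0.80), a subunit of phospholipid flippases. BMP7 was most like ENSBTAG00000007602 (0.89), TNC (0.88), the matrix protein tenascin C, and GNG2 (0.87), a G protein subunit. The genes most like RAB20 (ENSBTAG00000001570, ENSBTAG00000011446 and ENSBTAG00000008636, r of 0.86 to 0.87) and MAN1A1 (ENSBTAG00000038048, ENSBTAG00000020389 and ENSBTAG00000012060, 0.89 to 0.91) have no symbol in the tables used here. The first with a symbol, RELB, an NF-κB subunit, was at place 11 for RAB20 (0.83) and GDPD5, a phosphodiesterase, at place 9 for MAN1A1 (0.87). Both were looked up after the values were seen. Without the 4 week 5 CycNoP4 libraries these coefficients were 0.75 to 0.91, and so they were without the 5 libraries that stood apart. The order was less stable. Without the 4 libraries ENSBTAG00000007392 (0.802) came before FAM213A (0.789) for SERPINA1, as it did with a prior count of 0.5 (0.808 and 0.803). Also without the 4 libraries, SERPINA1 fell from place 2 to place 22 for FAM213A, and the first gene for RAB20 fell to place 43. The r of SERPINA1 with FAM213A was 0.89 over week 5 and 0.49 over week 9 libraries. Within groups it was 0.30 in NoCycW5 and 0.82 in CycW5 cows at week 5, and 0.70 and 0.46 at week 9. FAM213A (0.834) stayed first for SERPINA1 without the 5 libraries that stood apart. The coefficients describe libraries of 6 groups that share the differences between groups and weeks, and the 50 libraries are not independent.

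The pathways of the 5 genes could be followed only in part, because symbols were available for 46 of 276 listed genes, and only for genes that the study had called on part of these libraries. The counts below are therefore not independent evidence of a direction. Besides the 5 genes, 25 genes of these pathways were tested. Against NoCycW5 at week 5, 4 were higher in CycNoP4 cows and 0 were lower, with a median log2 fold change of 0.23 (-0.01 over all genes), where 9.92% of all genes were called higher and 6.52% lower. Against CycW5 at week 5, 1 was higher and 4 were lower (median -0.31, and -0.0022 over all genes), where 9.62% of all genes were called higher and 8.29% lower. At week 9 none of the 25 passed. Adjusted P values of single genes below are from edgeR.

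Beside SERPINA1, 4 genes on the list of serpins and their protease targets were tested. SERPINA11 was not on that list and is given below as a neighbour of SERPINA1. SERPINB5 (maspin) was higher in CycNoP4 than in NoCycW5 cows at week 5 (5.44 ± 3.62 and 2.21 ± 0.66 CPM, SD, log2 fold change 1.30 ± 0.34, adjusted P = 0.00865); its adjusted P was 0.211 without library 51 and 0.0684 with limma-voom.

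Of the genes around BMP7, no other ligand (2 tested), receptor or SMAD (3) or target gene (2) passed the test. Of 19 listed inhibitors 2 had a symbol, and both passed against CycW5, in opposite directions. FST, which encodes follistatin and binds activins and BMPs, was lower in CycNoP4 cows (7.25 ± 2.30 and 58.1 ± 26.6 CPM, log2 fold change -2.9998 ± 0.73, adjusted P = 0.00452, and 0.105 with limma-voom). SMAD7, an inhibitory SMAD inside the cell, was higher (23.5 ± 3.2 and 13.4 ± 3.7 CPM, 0.81 ± 0.20, adjusted P = 0.00505).

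Beside RAB20, 1 Rab gene and 1 gene of a Rab effector were tested, and both were lower in CycNoP4 than in CycW5 cows at week 5. RAB25, a GTPase of recycling endosomes in epithelia, had a log2 fold change of -0.84 ± 0.26 (adjusted P = 0.0241), and the call was lost without library 51 or 58 (up to 0.153). RABEP1, the effector, which acts at early endosomes, had -1.24 ± 0.32 (adjusted P = 0.00723). RAB20 had the opposite sign in that comparison.

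Of 3 genes of N-glycan trimming and branching beside MAN1A1, 2 were higher in CycNoP4 than in NoCycW5 cows. MGAT3, which adds a bisecting sugar to N-glycans, had a log2 fold change of 1.03 ± 0.31 (adjusted P = 0.0202, and 0.0755 with limma-voom). EDEM1, which sorts misfolded glycoproteins for degradation, had 0.50 ± 0.12 (adjusted P = 0.0048). Without library 56 or 58 the MGAT3 call was lost (adjusted P up to 0.106), as was that of EDEM1 without library 51 (0.0657).

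Among 7 antioxidant genes beside FAM213A, SRXN1, which reactivates oxidized peroxiredoxins, was higher in CycNoP4 than in NoCycW5 cows (14.3 ± 7.4 and 5.38 ± 2.01 CPM, log2 fold change 1.41 ± 0.31, adjusted P = 0.0026, and 0.0952 without library 51). TXNRD1, thioredoxin reductase, was lower in CycNoP4 than in CycW5 cows (155 ± 19 and 437 ± 219 CPM, -1.49 ± 0.34, adjusted P = 0.00293).

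Receptors for the ovarian hormones and for oxytocin (4 of 9 with a symbol) were followed beside the 5 genes. Between CycNoP4 cows and the other groups at the same week, 1 of the 4 passed the test. ESR2, estrogen receptor β, was lower in CycNoP4 than in CycW5 cows at week 5 (3.96 ± 1.91 and 13.8 ± 6.3 CPM, log2 fold change -1.80 ± 0.57, adjusted P = 0.0241), and the call was lost without library 51 or 56 (up to 0.114) and with limma-voom (0.0613). OXTR, the oxytocin receptor, stood at 247, 277, 172 and 120 CPM in libraries 51, 56, 58 and 64. CycW5 libraries of week 5 had 5.20 to 151 CPM (mean 45.2), and library 57 (151) was above library 64. The comparison with CycW5 missed the threshold (2.17 ± 0.83, edgeR adjusted P = 0.0606). NoCycW5 libraries of week 5 had 80.3 to 222 CPM (mean 123) and overlapped with the 4 libraries (0.73 ± 0.83, adjusted P = 0.558). ESR1 did not pass in either comparison (adjusted P of 0.444 and 0.14). At week 9, OXTR was at 68.9 to 178 CPM in 6 of 24 libraries (72, 76, 80, 83, 87 and 91) and at 1.58 to 38.9 CPM in the other 18. Of the libraries high in BMP7 and MAN1A1, 87 (178) and 76 (93.6) were among the 6 and 89 (7.44) was not, while BMP7 stood at only 1.69 to 3.24 CPM in libraries 72, 80, 83 and 91. MAN1A1 stood at 31.3, 33.9, 55.8 and 101 CPM in libraries 72, 80, 83 and 91, so it was high in library 91.

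The summed level of epithelial markers at week 5 was lowest in NoCycW5 cows. Symbols were available for 6 of 12 markers, and none of the 6 was at 0 in any library. Their summed level, led by EPCAM, was 1188, 901, 597 and 668 CPM in libraries 51, 56, 58 and 64, 491 ± 97 (SD) in NoCycW5 and 962 ± 352 in CycW5 libraries of week 5. MUC1 had another order, with 77.0 ± 18.5 CPM in NoCycW5, 65.6 ± 17.3 in CycNoP4 and 52.9 ± 22.6 in CycW5 libraries, and did not pass the test. EPCAM (log2 fold change 0.87 ± 0.30, adjusted P = 0.0411) and KRT8 (0.92 ± 0.17, adjusted P = 7.396e-04) were higher in CycNoP4 than in NoCycW5 cows; the EPCAM call was lost without library 48, 49, 51, 55, 56, 58 or 63 (adjusted P up to 0.246), and with limma-voom or only week 5 libraries (up to 0.052). CLDN3 (-1.09 ± 0.39, adjusted P = 0.0456) and CLDN7 (-1.10 ± 0.36, adjusted P = 0.0275) were lower in CycNoP4 than in CycW5 cows. Both calls were unstable, with adjusted P up to 0.172 and 0.107 when 1 library was left out, the first lost without library 12, 13, 54, 56, 58, 64, 66, 67 or 70 and the second without library 12, 56, 58 or 64. The CLDN3 call was also lost with limma-voom or no filter on low counts (adjusted P up to 0.0714). Library 58, with the lowest epithelial sum of the 4, had 19.5 CPM of SERPINA1, while library 64, with a higher sum, had 0.101. Libraries 51 and 56, with the higher sums, had more FAM213A (925 and 1252 CPM) than libraries 58 and 64 (438 and 222). They also had more RAB20 (17.6 and 7.89 against 4.31 and 4.09 CPM). BMP7 was lowest in library 51 (8.09 CPM) and MAN1A1 in library 56 (75.5 CPM). The part of epithelial content in the levels of the 5 genes was not tested.

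Of the uterine gland markers (3 of 6 with a symbol), SOX17 was lower in CycNoP4 than in CycW5 cows (log2 fold change -1.497 ± 0.40, adjusted P = 0.00836, and 0.0518 without library 51). SPP1 and LIF had the opposite sign (0.69 ± 0.72, adjusted P = 0.532, and 1.4995 ± 0.66, adjusted P = 0.101, by edgeR) and did not pass, so the median of the list was 0.69. Its most abundant gene at week 5 was SPP1 in CycNoP4 (54.4 ± 36.6 CPM) and NoCycW5 cows (70.5 ± 109, and 40.2 ± 28.3 without library 61, which had 404) and SOX17 in CycW5 cows (77.96 ± 22.4). The summed level of the list was 47.1, 75.9, 70.6 and 152 CPM in libraries 51, 56, 58 and 64, 101 ± 104 in NoCycW5 (71.5 ± 26.04 without library 61) and 113 ± 21 in CycW5 libraries. The stromal marker PDGFRA (1 of 10 with a symbol) was at 727, 269, 343 and 437 CPM in the 4 libraries, and the sum of 2 endothelial markers of 8, led by VWF, was at 241, 223, 354 and 361 CPM; no marker of either list passed the test. Library 51 had the highest epithelial and stromal and the lowest gland level of the 4, beside the highest RAB20 level. Markers of ciliated epithelium, smooth muscle, leukocytes, macrophages, neutrophils, red blood cells and proliferation had no symbol in the tables and were not analysed here.

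The number of genes that separated CycNoP4 cows at week 5 depended on single libraries. Against NoCycW5 cows 2650 genes were called, but 153 without library 51, 853 without library 56, 1720 without library 58 and 4775 without library 64. Against CycW5 cows 2887 were called, and 1111, 1571, 1812 and 4342 without the same libraries. Without the 5 libraries that stood apart, of which library 57 is the only one of week 5 CycW5 cows, the counts were 3826 and 4106. The count of 3826 compares the same libraries as that of 2650.

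The genes beside FAM213A on the chromosome were compared with it. By the order of RefSeq genes in the ARS-UCD2.0 assembly, which is not the assembly of the counts, MAT1A lies 3 places and DYDC1 2 places to one side of FAM213A and TSPAN14 1 place to the other. MAT1A encodes methionine adenosyltransferase. These genes had a symbol because the study had called them on part of these libraries, and they were singled out after their values were seen. At week 5, MAT1A stood at 1.37, 0.528, 0.793 and 1.08 CPM in CycNoP4 libraries 51, 56, 58 and 64, in NoCycW5 libraries at 0.266 to 2.08 (median 0.650) and in CycW5 libraries at 1.15 to 18.5 (median 9.29). DYDC1 stood at 0.342, 0.231, 0.189 and 0.169 CPM in the 4 libraries, on 5 to 9 reads each, in NoCycW5 libraries at 0 to 0.503 (median 0.0978) and in CycW5 libraries at 0.132 to 5.24 (median 3.32). In both genes the CycNoP4 libraries lay with the NoCycW5 libraries, where in FAM213A 3 of the 4 lay above all NoCycW5 libraries.

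By edgeR, MAT1A and DYDC1 were lower in CycNoP4 than in CycW5 cows at week 5, with log2 fold changes of -3.43 ± 0.70 (adjusted P = 0.00124) and -3.69 ± 0.78 (adjusted P = 0.0015). The calls held without each of the 14 libraries in turn and under 7 of 7 other settings. Both genes were picked after these values were seen, so the P values and this stability only describe the libraries. Against NoCycW5 their log2 fold changes were 0.03 ± 0.58 and 0.63 ± 0.67 (adjusted P of 0.98 and 0.529), and that of FAM213A was 2.60. TSPAN14 had 0.50 ± 0.15 against NoCycW5 (adjusted P = 0.0186, lost without library 51 or 56) and -0.10 ± 0.16 against CycW5 (0.692). The difference between FAM213A and its neighbours was not tested. At week 9, after the synchronization schedule, MAT1A stood at 4.77 to 15.5 CPM in CycNoP4 libraries, and none of the 3 genes passed the test in any comparison.

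**Figure D5:**
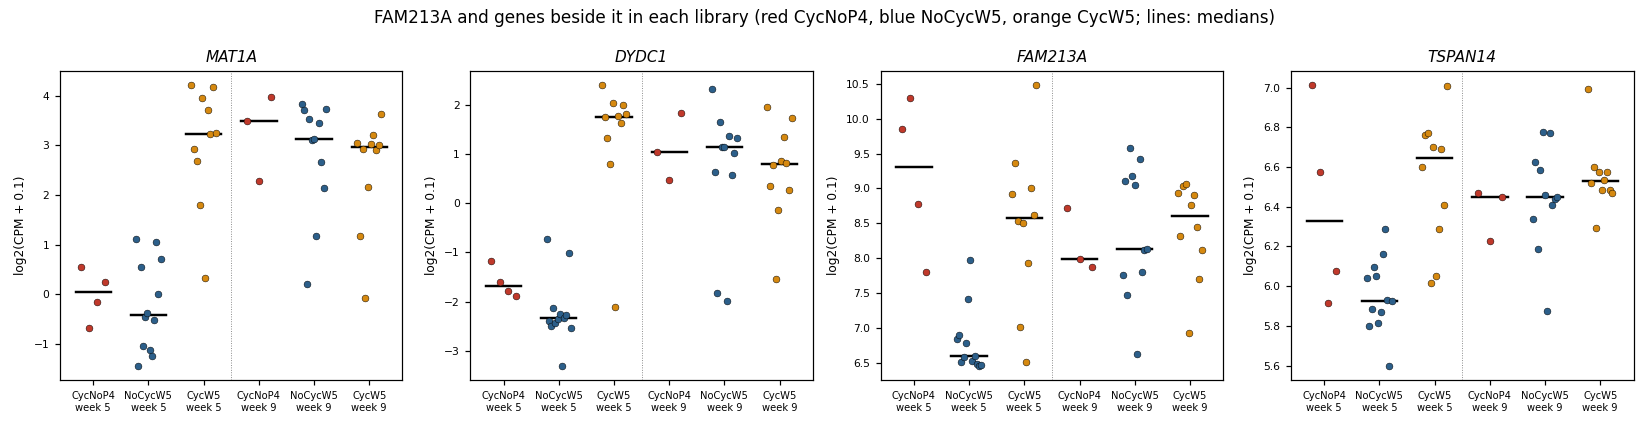
Level of FAM213A and of 3 genes near it as log2(CPM + 0.1) in 50 libraries by cow group and week, with group medians as lines and a separate vertical scale for each gene. At week 5 the CycNoP4 libraries lie with the NoCycW5 libraries in MAT1A and DYDC1, and above all but 1 of the NoCycW5 libraries in FAM213A.

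SERPINA11, another serpin, lies next to SERPINA1 in the same order of genes. It stood at 19.1, 2.41, 1.74 and 0.203 CPM in libraries 51, 56, 58 and 64, so library 64 was the lowest of the 4 in both genes, but library 51 and not library 56 was the highest. It was higher in CycNoP4 than in NoCycW5 cows (log2 fold change 2.83 ± 0.79, edgeR adjusted P = 0.0137; lost without library 51 and with limma-voom). SERPINA1 belongs to a family of similar genes, and how reads that map to several of them were counted is not given in the sources used here.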

How the data were processed

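Endometrial RNA was sequenced as stranded mRNA, single-end libraries. The authors' pipeline ran from trimming through Hisat2 alignment (UMD3.1 build) to FeatureCounts on Ensembl genes, and the raw counts were deposited; the labels' processing notes also list StringTie and edgeR. The 50 count columns were matched to the 50 samples by title. In R 4.3.3, edgeR 4.0.16 was used (TMM, filterByExpr, robust quasi-likelihood fit of 6 group means), with a BH threshold of 0.05; log2 CPM used a prior count of 2, and figures added 0.1 CPM. The SE is the absolute log2 fold change divided by the square root of the quasi-likelihood F statistic. The ratio of fold change to SE thus restates that statistic, and for the 5 genes at week 5 nothing is read from it. Test scripts were tested on simulated data. Alternatives were DESeq2 1.42.0 size factors and its Wald test, limma 3.58.1 voom, no filter, a filter of 1 CPM in 10 or more libraries, only libraries of the same week, and leaving out each library in turn. Leaving out together the 5 libraries that stood apart, leaving library 61 out of the gland levels, and all alternatives for the changes between weeks and for CycW5 against NoCycW5 at week 5 were chosen after seeing the data.

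The genes and the lists were chosen with earlier results of these data known. The genes named are the 5 genes, the 3 most alike by Pearson r for each of them, and up to 4 called genes per list and comparison by smallest adjusted P. Symbols came only from the study's supplementary tables (2324 identifiers). In those tables the columns of fold changes and P values were not used. The RefSeq table served for names and neighbours only, no identifier of the 5 genes was in it, and no sequence or coordinate of the assembly of the counts was used here.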

Additional observations from a re-analysis of the deposited data

Results flagged for a closer look

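In groups of 4 to 10 libraries, the gap between the highest or lowest library and its nearest neighbour was compared with Dixon's 95% critical value for each of the 5 genes, in 15 groups of values in all; chance marks about 1 in 20. CycW5 library 70 of week 5 was far above the rest of its group in SERPINA1 (17.9 CPM, next 6.44) and in FAM213A (1433 CPM, next 659). Week 5 values chose the genes, so these marks only describe single libraries and nothing is concluded from them. CycW5 library 87 of week 9 was far above the rest in SERPINA1 (37.7 CPM, next 5.32).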

How the results depend on the processing

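No paired analysis was possible because the labels do not link libraries to cows; the order of columns in the table was not used to pair them, and changes between weeks come from an unpaired fit. Of 345 alternative values of the 5 genes at week 9, 324 kept their sign and 0 passed the threshold (smallest edgeR, DESeq2 or limma adjusted P 0.265). Signs changed with limma-voom for SERPINA1 (-0.65) and BMP7 (0.18) in CycNoP4 against NoCycW5 and for FAM213A (0.034) in CycW5 against NoCycW5. Without the 5 libraries that stood apart they changed for SERPINA1 (-0.0042) and BMP7 (0.60) in CycNoP4 against NoCycW5, BMP7 (0.30) in CycNoP4 against CycW5 and MAN1A1 (0.059) in CycW5 against NoCycW5. Leaving out 1 library at a time gave -0.30 to 0.79 for SERPINA1 and -0.89 to 0.28 for BMP7 in CycNoP4 against NoCycW5, and -0.20 to 0.044 for FAM213A, -0.044 to 0.66 for RAB20 and -0.27 to 0.28 for MAN1A1 in CycW5 against NoCycW5. The cause was not tested. In the 3 comparisons of groups at week 5, 304 of 305 alternative values kept their sign and moved by less than 1 SD; the exception was RAB20 in CycNoP4 against NoCycW5 (0.69 without library 51). Of 280 alternative values of the changes between weeks, 273 did so. In CycW5 cows the sign changed without the 5 libraries for SERPINA1 (-0.69), BMP7 (-0.97) and MAN1A1 (-0.16), and leaving out 1 library gave -0.48 to 1.45 for SERPINA1, -0.45 to 0.048 for FAM213A and -0.0043 to 0.88 for BMP7. In NoCycW5 cows MAN1A1 moved to -1.12 without the 5 libraries. Calls at week 9 were 0 in each comparison, but 13, 19 and 15 for CycNoP4 against NoCycW5, CycNoP4 against CycW5 and CycW5 against NoCycW5 with DESeq2's Wald test, and 1 for the last with only week 9 libraries. Leaving out 1 library gave 0 to 18 (without library 79), 0 to 1 (without library 79) and 0 to 5 (without library 92) calls. At week 5, it gave 153 to 4775 calls against NoCycW5 and 1111 to 4342 against CycW5, and the other settings stayed within 1.5 times the counts of 2650 and 2887. Of 45 alternative correlation values 44 lay within the 95% interval of the main value; Spearman's rho of RAB20 with ENSBTAG00000001570 was 0.757. SERPINA1 at 0 to 7 reads in NoCycW5 cows at week 5, and 3 CycNoP4 libraries at week 9, limit the precision.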
